A study of Homo sapiens with 4 samples.

Results

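Dense clusters of distal open chromatin were examined in AMO1, a line of malignant plasma cells established from a patient with myeloma, with and without overexpression of PHF19. Overlapping peaks of 4 ATAC-seq libraries were merged on chromosomes 1 to 22 of hg38, which gave 71853 regions. Distal regions were those with a peak in both empty vector libraries that lay more than 2500 bp from both ends of every protein-coding gene, and there were 33315 of them. Distal regions separated by at most 12500 bp were chained, and the 220 chains of 5 or more regions are called clusters here, out of 24988 chains and single regions. They held 1248 regions, or 3.75% of the distal regions. The clusters were chosen by the presence of peaks in both empty vector libraries and by their spacing, so their number and positions are descriptions. Peak heights were not used, and peaks of the PHF19 libraries entered only through the merging. Because every member had to have a peak in both empty vector libraries, absence of a peak could be found only in the PHF19 libraries. Chain size was counted from the same peaks, so stretches higher in the empty vector libraries could more easily reach 5 regions.

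ATAC-seq marks open DNA by letting the Tn5 transposase cut and tag it. The cells carried the PCDH vector with PHF19, or the same vector empty. The 4 libraries, 1 per group, were PHF19 overexpression (18.2 M fragments, where M stands for 1000000) and empty vector (27.4 M), and then IFN PHF19 overexpression (16.4 M) and IFN empty vector (65.9 M). The IFN prefix stands in the titles of the last pair and is not explained in the labels. The labels do not say whether the libraries came from separate cultures, so an effect of PHF19 and a difference between cultures cannot be told apart. With 1 library per group a single pair of libraries gives no test. The intervals of ratios below cover at most counting error. Intervals of shares and of medians take regions or clusters as the unit and hold no spread between libraries or cultures. A fit of PHF19 over all 4 libraries with the IFN prefix as a block leaves 1 residual degree of freedom, and its calls are given beside the calls by size.

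Enhancers are stretches of open chromatin, often far from the genes they control, where transcription factors bind. Genes that define a cell type frequently lie near dense groups of enhancers, called super-enhancers when they also carry much coactivator or histone acetylation, neither of which was measured here. In plasma cells and myeloma such groups have been described beside genes for plasma cell transcription factors and for MYC. PHF19 is a Polycomb-like protein that recruits Polycomb repressive complex 2, which methylates histone H3 and keeps genes silent.

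The letters of the clusters themselves could not be read without a genome, but RefSeq start windows on GRCh38.p14 (250 bases before to 50 after an annotated start, all 300 bases long) overlapped 86 of the 1248 cluster regions, or 6.89% (95% exact binomial interval 5.55 to 8.44%), in 67 clusters. The share was 5.96% in chains of 2 to 4 regions and 5.59% in single distal regions. These are start sites inside genes or of long noncoding RNAs. The 4 shown cover part of the results described below, and none lies in a region raised in the PHF19 libraries. The window at an inner start of LPIN1 held its height. Those of MEF2C-AS2 and LOC100996549 lay in regions lowered in both PHF19 libraries. That of NDRG4 lay in the tallest cluster region with no peak in either of these libraries. Capitals mark motif matches. They lie at chr2:11746382-11746681 (plus strand), chr5:88675968-88676267 (plus strand), chr2:9779943-9780242 (minus strand) and chr16:58499893-58500192 (plus strand), in the order of the lines.
LPIN1: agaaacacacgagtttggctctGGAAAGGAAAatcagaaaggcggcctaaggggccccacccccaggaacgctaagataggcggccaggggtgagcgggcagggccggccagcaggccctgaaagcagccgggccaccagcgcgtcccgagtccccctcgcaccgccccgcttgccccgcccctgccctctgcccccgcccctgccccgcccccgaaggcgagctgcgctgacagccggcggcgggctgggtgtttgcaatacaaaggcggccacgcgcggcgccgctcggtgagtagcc
MEF2C-AS2: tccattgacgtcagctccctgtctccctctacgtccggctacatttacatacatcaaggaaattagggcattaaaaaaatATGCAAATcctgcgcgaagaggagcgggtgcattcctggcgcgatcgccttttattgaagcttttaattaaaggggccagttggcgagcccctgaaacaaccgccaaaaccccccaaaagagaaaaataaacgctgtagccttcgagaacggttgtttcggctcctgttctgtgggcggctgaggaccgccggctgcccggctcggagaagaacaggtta
LOC100996549: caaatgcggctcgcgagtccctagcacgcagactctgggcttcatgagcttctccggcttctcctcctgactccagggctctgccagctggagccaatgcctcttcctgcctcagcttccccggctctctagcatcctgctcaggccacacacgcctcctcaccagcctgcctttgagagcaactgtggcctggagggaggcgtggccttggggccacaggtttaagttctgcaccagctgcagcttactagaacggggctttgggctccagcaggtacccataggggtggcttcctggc
NDRG4: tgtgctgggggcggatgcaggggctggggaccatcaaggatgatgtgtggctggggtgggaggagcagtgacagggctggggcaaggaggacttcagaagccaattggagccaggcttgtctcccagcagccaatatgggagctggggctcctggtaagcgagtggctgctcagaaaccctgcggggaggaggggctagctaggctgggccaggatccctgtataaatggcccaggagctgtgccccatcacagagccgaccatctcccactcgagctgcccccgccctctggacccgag

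Motifs were searched on both strands of the 85 windows that lay wholly inside a cluster region, some of which overlap each other. The composite site of ETS and IRF factors such as IRF4, GGAA and GAAA separated by 2 bases, was present in 6 windows (7.06%), against 2.78% of all 33558 windows on chromosomes 1 to 22. The core of interferon response elements, GAAA and GAAA with 2 bases between, was present in 9 (10.6%), against 3.57% of all windows; the letters of both motifs can overlap in part. The octamer ATGCAAAT was present in 4 (4.71%), against 1.75%. TGANTCA, bound by AP-1 factors, was present in 8 (9.41%), against 7.68%. CTA and TAG separated by 4 bases, bound by MEF2 factors, were present in 3 (3.53%), against 2.7%. Windows inside chains of 2 to 4 had 2.05% for ETS-IRF, 4.61% for the interferon core and 2.56% for the octamer. They had 11.8% for AP-1, above the clusters, and 2.18% for MEF2. Overlapping windows count a site more than once: those of LOC102723575 each held 1 ETS-IRF match and 1 octamer. The LPIN1 window held 1 ETS-IRF match and the MEF2C-AS2 window 1 octamer. The windows inside clusters had a median GC content of 56% and 10 CpG dinucleotides, against 58.7% and 14 for all windows.

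Of the miRNA hairpins in RefSeq, 9 lay within the span of a cluster and 4 within a cluster region. Those of MIR9-2 and MIR148A are shown because their regions behaved differently in the comparison below, with the seed (bases 2 to 8) in capitals. MIR9-2 lies on the minus strand at chr5:88666853-88666939 in the MEF2C cluster, and MIR148A on the minus strand at chr7:25949919-25949986, in the cluster nearest to NFE2L3. No seed was shared between them.
hsa-miR-9-5p: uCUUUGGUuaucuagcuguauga
hsa-miR-9-3p: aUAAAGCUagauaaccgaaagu
hsa-miR-148a-3p: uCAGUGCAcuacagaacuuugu

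The clusters were mostly small. Of the 220, 141 held 5 regions, 42 held 6, 23 held 7, and 14 held 8 or more, up to 12. The median span was 32.7 kb (15.8 to 71.4 kb), and together the clusters covered 7.59 Mb. A protein-coding gene overlapped 126 of them, and the other 94 lay between genes, at a median of 27.1 kb from the nearest one. Clusters are named by the gene that overlaps them most, or else by the nearest one, which says nothing on which gene they act. Just outside the threshold were 348 chains of 4 regions, with a median summed height of 10.4 fragments per M against 15.7 fragments per M for chains of 5, averaged over both empty vector libraries. Chromosome 2 had the most clusters (32), and 5.69% of its distal regions were in clusters. The highest share was 5.84%, on chromosome 16, and the lowest 1.76%, on chromosome 22. No cluster lay within 100000 bp of an immunoglobulin locus.

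Cluster regions were taller than other distal regions. Height is the number of fragments over the tallest summit per M fragments of the library. The median height of cluster regions was 2.41 fragments per M in PHF19 overexpression and 2.34 in empty vector, against 1.43 and 1.13 for single distal regions in the same libraries. In IFN PHF19 overexpression and IFN empty vector it was 2.75 and 2.4 fragments per M, against 1.65 and 1.2 for single regions. More of the peaks in clusters had several summits, 15.1% against 8.26% of single ones in empty vector. The authors' fold enrichment over local background was lower, with a median of 5.67 against 6.81 in that library. The clusters held 6.07% of the summed height of all distal regions in PHF19 overexpression, 6.3% in empty vector, 5.95% in IFN PHF19 overexpression and 6.09% in IFN empty vector. Regions without a peak added nothing to these sums or to the summed heights of clusters below. Only the PHF19 libraries could lack peaks.

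The tallest cluster lay 33.4 kb from SDC1, the gene of syndecan-1 (CD138), the surface proteoglycan by which plasma cells are recognised. It spanned chr2:20097625-20167383 with 10 regions, all with a peak in every library. Its summed height was 328 fragments per M in PHF19 overexpression, 265 in empty vector, 340 in IFN PHF19 overexpression and 226 in IFN empty vector. Both PHF19 libraries were above both empty vector libraries. The SDC1 cluster alone made up 8.32% of the height of all clusters in PHF19 overexpression, against 5.18% in empty vector. These shares rest on unequal totals, 3945 fragments per M in PHF19 overexpression and 5117 in empty vector. Regions without a peak, possible only in the PHF19 libraries, added nothing to the totals.

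The next tallest lay over BTG4, 29.9 kb from POU2AF1, which encodes the B cell coactivator of octamer-binding factors. It spanned chr11:111409160-111455577 with 7 regions, and had a summed height of 147 fragments per M in PHF19 overexpression, 196 in empty vector, 155 in IFN PHF19 overexpression and 179 in IFN empty vector. Here both PHF19 libraries were below both empty vector libraries. Among the 10 tallest were also those of LMNA (nuclear lamins A and C), ID2 (an inhibitor of helix-loop-helix factors, 137 kb away), CFAP126, CHD2 (a chromatin remodeller), LAPTM4A, LPIN1 (a phosphatidate phosphatase) and CCDC88C. Their summed heights in empty vector ran between 56.6 fragments per M for LAPTM4A and 97.2 for LMNA. The 10 tallest held 24.5% of the height of all clusters in PHF19 overexpression and 20.1% in empty vector, of the same unequal totals. Their own sum was 966 fragments per M in PHF19 overexpression and 1028 in empty vector.

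**Figure D1:**
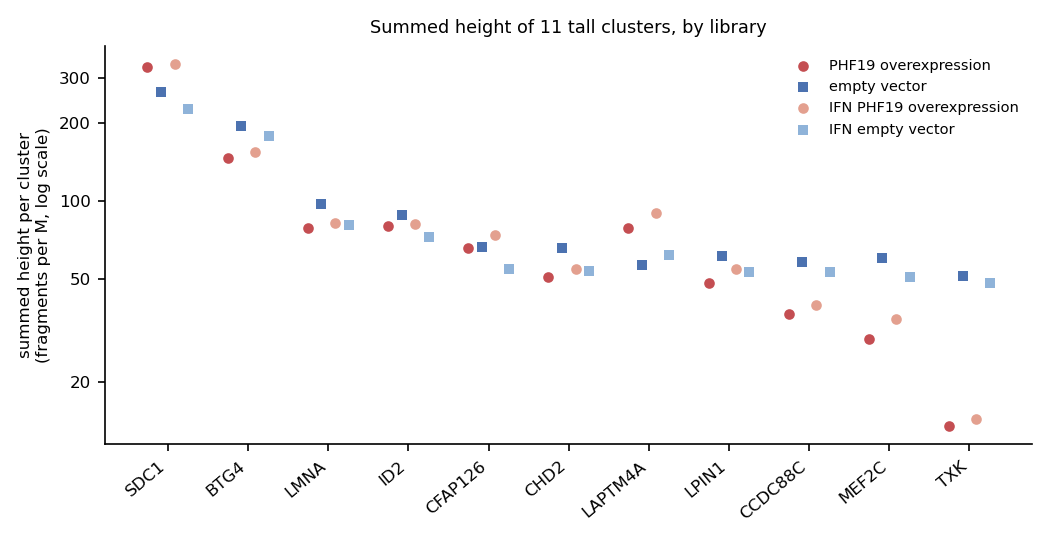
Summed height (fragments per M, log scale) of 11 of the clusters tallest in the empty vector libraries, in each of the 4 libraries, 1 point per library. The SDC1 cluster stands above the others at 328, 265, 340 and 226 fragments per M, and the MEF2C and TXK clusters show the PHF19 libraries well below the empty vector libraries. Regions without a peak add nothing to a sum, and 6 of the 11 TXK regions have no peak in either PHF19 library.

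Several genes of plasma cell and myeloma biology had a cluster nearby. A cluster overlapped or lay within 100000 bp of 5 of 29 genes of the plasma cell list (17.2%), against 605 of 19122 protein-coding genes (3.16%). The 5 were IRF4 (the plasma cell transcription factor), POU2AF1, SDC1, FCRL5 and ELL2 (an elongation factor used in antibody secretion). In the list of myeloma oncogenes and suppressors MYC, TENT5C, BIRC2 and BIRC3 were among the genes with one. A cluster was near 3 of 30 genes (10%) of the interferon list (IRF2, SOCS1 and OAS2), 2 of 20 of the adhesion list (CD86 and IL6ST) and 1 of 20 of the secretory list (ERN1, the stress sensor IRE1). No gene of the B cell list (of 20), of the Polycomb target list (of 25) or of the myeloid list (of 15) had one. Among lists for other cell types, 1 of 20 T and NK cell genes (GNLY) and 1 of 15 stromal and epithelial genes (CDH1) had one. The gene lists were chosen with earlier results of these data known, so these counts are descriptions.

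The plasma cell markers were open at their gene ends. All 7 plasma cell markers had a peak within 1000 bp of an end in every library, with summed heights of 201 to 358 fragments per M, of which SDC1 alone made up 158 to 314. PRDM1 had 1.04 to 1.49 fragments per M and SLAMF7 1.81 to 3. The defining B cell markers PAX5 and MS4A1 and the myeloid markers CD14, CSF1R and MPO had none in any library. CD3E had a peak of 12.1 to 14.4 fragments per M, CD3D and CD247 only in the IFN empty vector library, at 0.288 and 0.728 fragments per M, COL1A1 had 7.68 to 11.7 and EPCAM 2.3 to 3.24 fragments per M in the 4 libraries.

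In the PHF19 libraries the clusters were, on the whole, lower. For each cluster the heights of its regions with a peak in all 4 libraries were summed, and the log2 ratio of the sums was set to 0 at the middle of the 34809 regions found in every library, so that 0 is the median region and -1 is lower by a factor of 2. The centres removed were -0.11 for PHF19 overexpression against empty vector and 0.14 for IFN PHF19 overexpression against IFN empty vector. The median over the 220 clusters was -0.17 (interval from ranks -0.23 to -0.10) for PHF19 overexpression against empty vector. It was -0.21 (-0.27 to -0.16) for IFN PHF19 overexpression against IFN empty vector. These rank intervals take the clusters of 1 library pair as the unit and are no test of PHF19. Chains of 2 to 4 regions had medians of -0.02 and -0.09, and single distal regions of 0.09 and -0.0034. Chain size was counted from empty vector peaks, so medians by chain size are descriptions and cannot show a preferential lowering of clusters. In the first comparison 155 clusters were below 0 and in the second 167, with 146 below 0 in both and 44 above 0 in both. The 2 comparisons share no library, and their values across clusters had Pearson's r = 0.864 (n = 220), with neighbouring clusters sharing chromosome segments and with values of 1 library pair for all points; across 4994 chains of 2 to 4 it was 0.703.

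**Figure D2:**
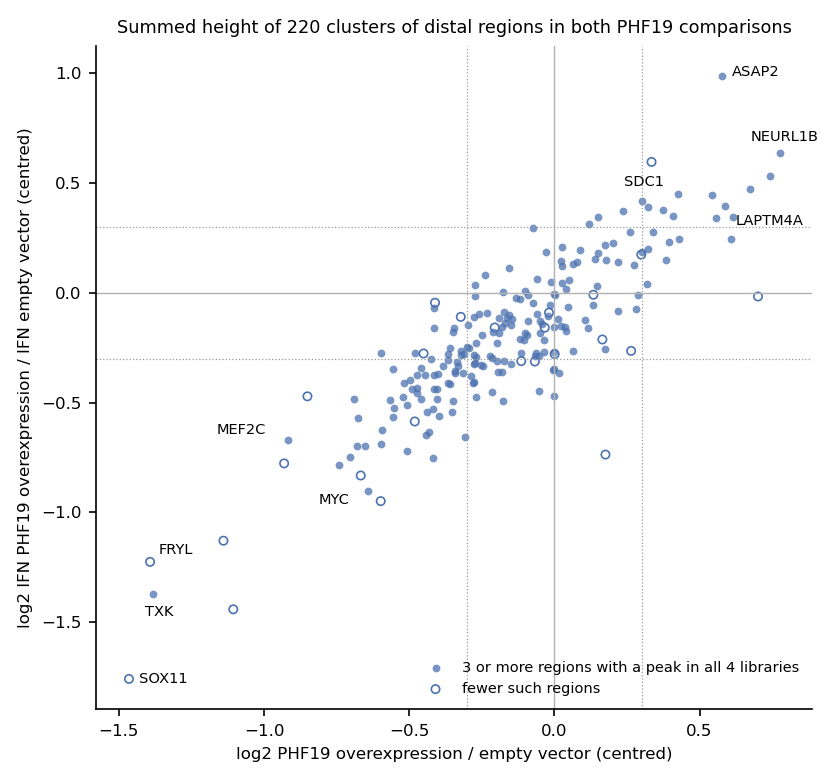
Centred log2 ratio of summed height for each of the 220 clusters, PHF19 overexpression over empty vector on the x axis and IFN PHF19 overexpression over IFN empty vector on the y axis; dotted lines mark 0.3 in each direction, and open circles rest on fewer than 3 regions. Most points lie in the lower left, 146 of 220, and the points run along the diagonal.

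The lower values were not particular to chains of 5 or more. Chains of 3 regions had medians of -0.08 and -0.13, chains of 4 of -0.16 and -0.16, chains of 5 of -0.15 and -0.19, and chains of 6 of -0.11 and -0.23, in the unprefixed and IFN-prefixed comparison. Height moved with the ratio as well. In the tallest quartile of distal regions (3.54 fragments per M and above) cluster regions had medians of -0.21 and -0.19, chains of 2 to 4 of -0.18 and -0.16, and single regions of -0.12 and -0.10. In the lowest quartile the same medians were 0.17 and -0.02 for cluster regions, and 0.30 and 0.13 for single regions. Within each of the 4 height quartiles cluster regions had the lower median than single regions in both comparisons. This order is a description too, since chain size was counted from empty vector peaks. Subtracting the median of the regions within 2.5 Mb of each cluster left medians of -0.20 and -0.20.

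Calls were made by size. A cluster was called when its log2 ratio passed 0.3 in the same direction in both PHF19 comparisons. Lower calls numbered 60 of 220 (27.3%, exact interval 21.5 to 33.7%), against 18.5% of chains of 2 to 4. Higher calls numbered 14 (6.36%, 3.52 to 10.4%), against 11.2%. By size, lower calls made up 22.5% of chains of 3 regions, 22.7% of chains of 4, 23.4% of chains of 5 and 33.3% of chains of 6. Higher calls made up 7.92, 6.1, 7.09 and 7.14% in the same order. Chains of 5 were thus close to chains of 3 and 4. Single regions were called past 0.5. In PHF19 overexpression against empty vector 170 of the 916 cluster regions with a peak in all 4 libraries were lower (18.6%), against 11.4% of all such regions, and 96 were higher (10.5%), against 15.8%. In IFN PHF19 overexpression against IFN empty vector 210 were lower (22.9%), against 13.2%, and 67 were higher (7.31%), against 11.8%. In both comparisons 115 were lower (12.6%), against 6.78%, and 36 were higher (3.93%), against 6.37%. Chain size was counted from empty vector peaks, which can tilt clusters towards lower calls. The shares against shorter chains and all regions are therefore descriptions.

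With the prefix as a block, limma called 66 clusters lower in the PHF19 libraries (30%), against 17.9% of chains of 2 to 4, at a Benjamini-Hochberg adjusted p below 0.05. It called 22 higher (10%), against 11.7%. Among the 916 cluster regions 172 were lower (18.8%), against 8.81% of all regions with a peak in every library, and 68 were higher (7.42%), against 9.72%. The fit takes 1 spread for all features of a given height, and it treats the prefixed and unprefixed pairs as replicates of the PHF19 difference. Its shares are descriptions as well, since chain size was counted from empty vector peaks.

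The most lowered clusters lay on several chromosomes. The cluster over TXK, a T cell kinase gene, had 11 regions on chr4:48082804-48154177 and a summed height of 13.6 fragments per M in PHF19 overexpression, 51.4 in empty vector, 14.4 in IFN PHF19 overexpression and 48.3 in IFN empty vector. Over its 3 regions with a peak in all libraries the log2 ratios were -1.38 (-1.60 to -1.17) and -1.37 (-1.58 to -1.16). With absent peaks counted as 0 they were -1.81 and -1.88. The FRYL cluster, nearby at chr4:48535706-48579374, had -1.39 and -1.23 over 2 regions. The neighbourhoods of both were lower too, with medians of -0.76 and -0.76 around TXK and -0.77 and -0.77 around FRYL.

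The cluster nearest to SOX11, a developmental transcription factor gene 442 kb away, had the lowest ratios of all, -1.47 and -1.76 over 2 regions, in a neighbourhood at 0.09 and 0.13. Its summed height was 3.35 fragments per M in PHF19 overexpression, 10.6 in empty vector, 2.75 in IFN PHF19 overexpression and 10.8 in IFN empty vector. The clusters nearest to OR4E1, GALR1 and RASSF8 rested on 1 or 2 regions each, with ratios between -0.78 and -1.44. The CLIC5 cluster had -0.74 and -0.78 over 4 regions. The TRAM2 cluster (chr6:52517415-52567308) was the best measured of this group, with 7 regions that had a peak in every library. Its summed height was 19.7 fragments per M in PHF19 overexpression, 34.7 in empty vector, 21 in IFN PHF19 overexpression and 32 in IFN empty vector, and its log2 ratios were -0.70 (-0.88 to -0.53) and -0.75 (-0.91 to -0.58). Its neighbourhood was at -0.07 and -0.06.

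Several clusters near genes of the myeloma and secretory lists were called lower, and others were not. That nearest to MYC, the growth-driving transcription factor, at chr8:127782886-127808513 and 39.9 kb from the gene, had a summed height of 12.6 fragments per M in PHF19 overexpression, 23 in empty vector, 10.8 in IFN PHF19 overexpression and 21.7 in IFN empty vector. Both PHF19 libraries were lower, with log2 ratios of -0.64 (-0.88 to -0.41) and -0.90 (-1.14 to -0.67) in a neighbourhood at 0.01 and -0.02. The TENT5C cluster, beside a tumour suppressor gene of myeloma, had -0.68 and -0.57. The ERN1 cluster, the only cluster near the secretory list, had -0.34 and -0.37. The BIRC3 cluster did not pass, at -0.13 (-0.40 to 0.13) and -0.02 (-0.26 to 0.21). Near no gene of these lists, the CCDC88C cluster, with the most regions, had -0.47 and -0.45.

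Clusters near genes of the interferon and adhesion lists differed among themselves. The cluster nearest to PRM1, 40.9 kb from the cytokine signalling inhibitor SOCS1, had -0.52 and -0.47, that over DTX1, 55.9 kb from OAS2, -0.43 and -0.63, and that nearest to MYL12BP2, 98.5 kb from IRF2, -0.47 and -0.43. The IL6ST cluster, near the shared receptor subunit of the interleukin-6 family, had 0.34 (0.01 to 0.67) and 0.28 (-0.01 to 0.56), and the ANKRD55 cluster farther along had 0.01 and -0.36. The CD86 cluster had -0.41 (-1.01 to 0.17) and -0.04 (-0.51 to 0.40) over 2 regions.

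Regions of the same cluster could differ sharply. In the BTG4 cluster the region at chr11:111438355-111440396 had 15.7 fragments per M in PHF19 overexpression, 38.3 in empty vector, 15.4 in IFN PHF19 overexpression and 31.1 in IFN empty vector, with log2 ratios of -1.17 and -1.15. The tallest region of that cluster, at chr11:111416784-111418268, had 42.1, 62.7, 44.8 and 57.8 fragments per M in the same libraries, with -0.46 and -0.51. The 4 other regions with a peak in every library lay between 0.01 and 0.29 in the first comparison and between -0.14 and 0.11 in the second. Over its 6 regions with a peak in every library the BTG4 cluster had -0.28 (-0.34 to -0.21) and -0.32 (-0.39 to -0.26). The cluster over POU2AF1 itself, next to it, had -0.0028 (-0.18 to 0.17) and -0.16 (-0.31 to -0.01).

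The MEF2C cluster, 25.5 kb from the gene of a MADS-box transcription factor of lymphoid and muscle cells, had ratios below 0 in all 5 of its regions; it is described after its values were seen. The regions ran from -1.24 to -0.55 in the first comparison and from -1.24 to -0.34 in the second, where the interval of the last region covered 0. Its summed height was 29.5 fragments per M in PHF19 overexpression, 60.3 in empty vector, 35.1 in IFN PHF19 overexpression and 50.8 in IFN empty vector, with log2 ratios of -0.92 (-1.06 to -0.78) and -0.67 (-0.80 to -0.54). The region around the MEF2C-AS2 start had 5.49 fragments per M in PHF19 overexpression, 14 in empty vector, 5.98 in IFN PHF19 overexpression and 11.5 in IFN empty vector. Its log2 ratios were -1.24 and -1.08. The region with MIR9-2 had 2.36, 4.13, 2.32 and 4.99 fragments per M in the same libraries, with -0.69 (-1.23 to -0.17) and -1.24 (-1.77 to -0.75). The neighbourhood was lower as well, at -0.58 and -0.50. By contrast the MIR148A region, in the lowered NFE2L3 cluster (-0.44 and -0.54), had 6.42, 6.87, 6.05 and 6.01 fragments per M, with 0.02 (-0.33 to 0.36) and -0.13 (-0.46 to 0.19).

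The windows of LOC100996549 and LPIN1 lay in regions with contrasting values. The LOC100996549 region, in the TAF1B cluster, had 1.37 fragments per M in PHF19 overexpression, 4.68 in empty vector, 0.977 in IFN PHF19 overexpression and 3.31 in IFN empty vector. Its log2 ratios were -1.65 (-2.34 to -1.03) and -1.90 (-2.73 to -1.16), while the 3 other regions of the cluster with a peak in every library had 0.85, -0.49 and 0.49 in the first comparison and 0.42, -0.42 and 0.06 in the second. The LPIN1 region had 16.1, 17.6, 16.8 and 13.4 fragments per M in the same libraries, with -0.01 (-0.23 to 0.20) and 0.18 (-0.02 to 0.38), inside a cluster at -0.23 and -0.09.

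**Figure D3:**
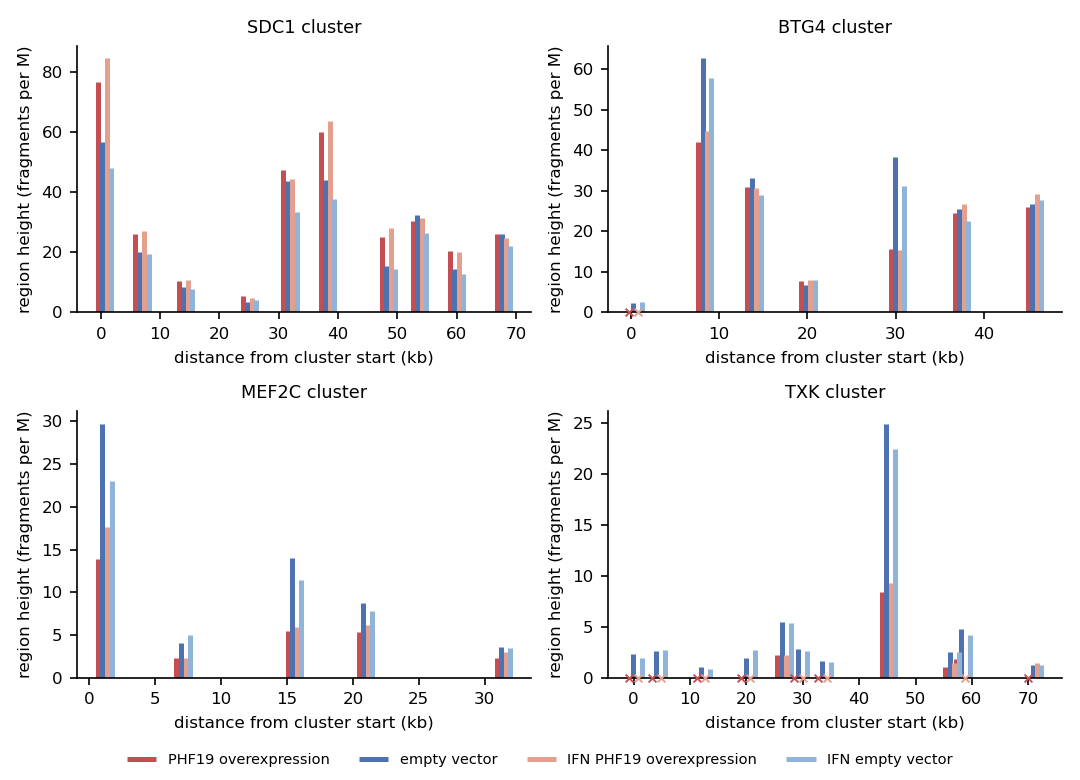
Height of each region (fragments per M) against its distance from the cluster start (kb) in the SDC1, BTG4, MEF2C and TXK clusters, with 1 bar per library and a cross where no peak was called. SDC1 regions are mostly taller in the PHF19 libraries, the BTG4 region near 30 kb and all 5 MEF2C regions are shorter in them, and 6 of the 11 TXK regions have no peak in either PHF19 library.

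The clusters called higher lay mostly in raised stretches. In the SDC1 cluster all 10 regions had log2 ratios above 0 in both comparisons, between 0.02 and 0.82 in the first and between 0.03 and 0.81 in the second. Its sums gave 0.42 (0.38 to 0.47) and 0.45 (0.40 to 0.49), in a neighbourhood at 0.38 and 0.17. The LAPTM4A cluster before it had 0.59 and 0.40, and the PUM2 cluster after it, 5.55 kb from SDC1, 0.41 and 0.35. The end of the SDC1 gene itself, which is not part of any cluster, had a peak of 295 fragments per M in PHF19 overexpression, 246 in empty vector, 314 in IFN PHF19 overexpression and 158 in IFN empty vector.

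Away from these 3 neighbours the raised clusters were mostly of low height. The NEURL1B cluster had 12 fragments per M in PHF19 overexpression, 8.7 in empty vector, 14 in IFN PHF19 overexpression and 9.56 in IFN empty vector, with log2 ratios of 0.78 and 0.64 in a neighbourhood at 0.55 and 0.46. The ASAP2 cluster had 0.58 (0.39 to 0.76) and 0.99 (0.85 to 1.13) in a neighbourhood at 0.17 and 0.14. The APBB2, GNLY, SH3BP2 and MYO5B clusters had 0.67, 0.74, 0.37 and 0.54 in the first comparison and 0.47, 0.53, 0.38 and 0.44 in the second. With the local median subtracted SH3BP2 turned to -0.13 and -0.21 and GNLY to -0.05 in the second comparison. Of the 14 clusters called higher, 3 also passed 0.3 in both comparisons after the local median was subtracted (MYO5B, ASAP2 and MVB12B), and of the 60 called lower 42 did. With absent peaks counted as 0 instead, 7 of the 14 higher ones and all 60 lower ones passed. Only the PHF19 libraries could lack a peak, so this setting can only lower a ratio. The neighbourhoods of the higher ones had median log2 ratios of 0.345 and 0.283, and those of the lower ones of -0.07 and -0.06.

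**Figure D4:**
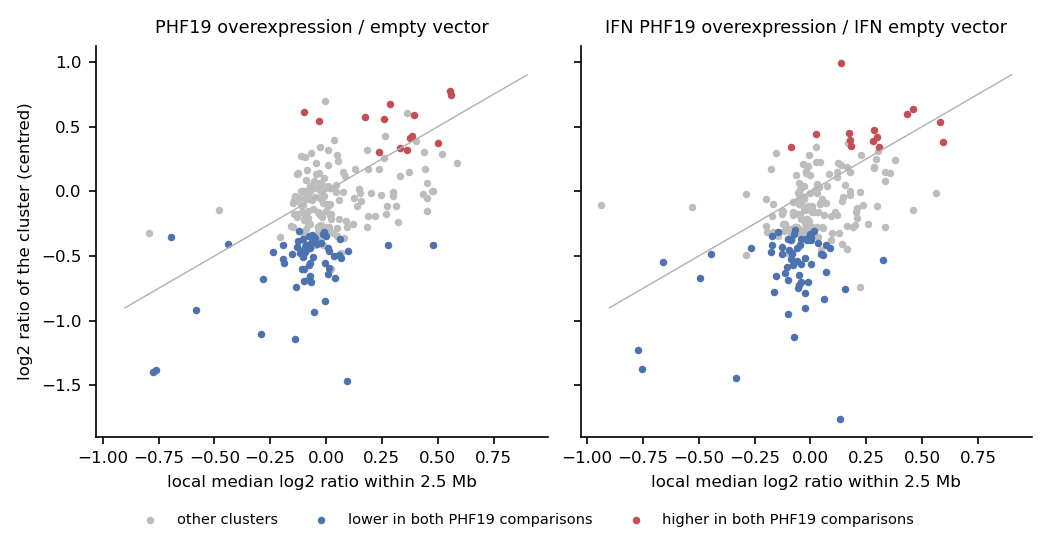
Centred log2 ratio of each cluster against the median log2 ratio of regions within 2.5 Mb outside it, for PHF19 overexpression over empty vector (left) and IFN PHF19 overexpression over IFN empty vector (right); the line marks equality. The 14 clusters called higher in both comparisons sit mostly over raised neighbourhoods, and most of the 60 called lower sit below neighbourhoods close to 0.

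Peaks of cluster regions were also missing from the PHF19 libraries. No peak was called in 265 cluster regions in PHF19 overexpression (21.2%) and in 259 in IFN PHF19 overexpression (20.8%), against 24.9% and 23.7% of the distal regions outside clusters. Missing peaks moved with height, and the lists differ in depth: the weakest peaks had 8 fragments in both PHF19 libraries, 10 in empty vector and 16 in IFN empty vector. Among regions of the tallest quartile in empty vector 4.88% of cluster regions had no peak in PHF19 overexpression (3.24 to 7.02%), against 3.18% in chains of 2 to 4 and 1.52% of single regions. In the IFN-prefixed pair the shares were 6.04% (4.2 to 8.38%), 3.22% and 1.55%. The order was the same in each of the 4 quartiles of both pairs. Chain size was counted from empty vector peaks, so stretches with peaks only in those libraries could enter as clusters. With a peak required in all 4 libraries 76 clusters remained. The shares by chain size are therefore descriptions and cannot show a preferential loss in clusters.

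**Figure D5:**
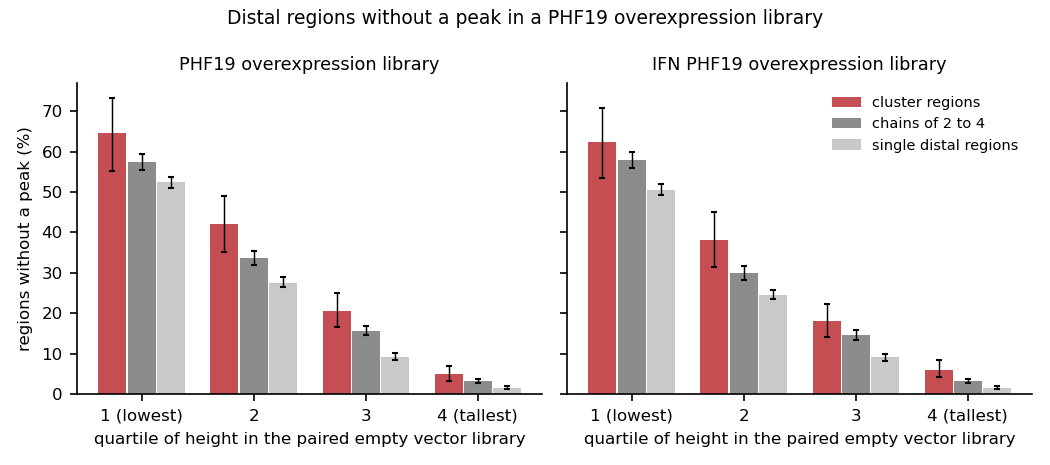
Share of distal regions without a peak, by quartile of height in the paired empty vector library, for cluster regions, chains of 2 to 4 and single regions. The left panel is the PHF19 overexpression library and the right panel the IFN PHF19 overexpression library. Error bars are 95% exact binomial intervals with regions as the unit and hold no spread between libraries. Chain size was counted from empty vector peaks. Cluster regions have the largest share in every quartile, 4.88% and 6.04% in the tallest.

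At least 2 fragments per M in both empty vector libraries were found in 686 cluster regions. Of these, 37 had no peak in either PHF19 library (5.39%, 3.83 to 7.36%), against 2.75% in chains of 2 to 4 and 1.36% of single regions. Here too chain size was counted from empty vector peaks, so the shares are descriptions. The tallest of the 37 was the NDRG4 region whose start window is shown above, at chr16:58499615-58500685. It had 222 fragments in empty vector (8.11 per M) and 540 in IFN empty vector (8.19 per M). NDRG4 encodes a differentiation-related protein of brain and heart. Of its cluster's 5 regions 3 had no peak in either PHF19 library. The region before them, at chr16:58494930-58496041, had 5.76 fragments per M in PHF19 overexpression, 7.45 in empty vector, 6.23 in IFN PHF19 overexpression and 7.59 in IFN empty vector. Regions of the STK24, FCRL5 and KCNN3 clusters followed, at 5.37, 5.81 and 5.37 fragments per M in empty vector. The FCRL5 cluster lies 6.94 kb from the gene of an Fc receptor-like protein of plasma cells. In 9 clusters most regions had no peak in either PHF19 library, and in 94 clusters no region was missing from both.

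The IFN prefix went with much smaller differences. The median log2 ratio over clusters was 0.02 (-0.0047 to 0.04) for IFN empty vector against empty vector and 0.0071 (-0.01 to 0.03) for IFN PHF19 overexpression against PHF19 overexpression. The SD over clusters was 0.15 and 0.16, against 0.37 and 0.36 in the PHF19 comparisons. The rule required a peak in both empty vector libraries, which are those of the first prefix comparison. Its small spread beside the PHF19 comparisons is therefore a description. Only the PTPRA cluster, at a receptor tyrosine phosphatase gene, was called higher in both (0.455%, against 5.07% of chains of 2 to 4), and none was called lower (0%, against 0.601%). It had 9.16 fragments per M in IFN PHF19 overexpression and 6.69 in PHF19 overexpression, and 10.7 in IFN empty vector and 9.14 in empty vector. Its log2 ratios were 0.36 (0.14 to 0.58) with empty vector and 0.34 (-0.01 to 0.70) with PHF19. Of the 916 cluster regions 15 were called higher in both (1.64%, against 1.78% of all regions) and 0 lower (0%, against 0.109%), which is close to the background.

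The other clusters furthest from 0 with the same sign in both prefix comparisons, at most 6 per direction, passed 0.3 in 1 of them or in neither. TENT4A had 0.29 and 0.35, MACF1 0.28 and 0.27, DUSP22 (the cluster farther from IRF4) 0.32 and 0.26, CDCA7 0.40 and 0.22, and CD109 0.24 and 0.64, with empty vector and with PHF19. On the lower side CPN2 had -0.15 and -0.25, LTBP4 -0.18 and -0.15, OSBP -0.21 and -0.18, CYTH1 -0.14 and -0.15, ALOX5AP -0.15 and -0.32, and PAPOLG -0.18 and -0.31. The clusters near interferon-list genes did not pass 0.3 in either comparison. The DTX1 cluster near OAS2 had -0.12 and -0.29, the MYL12BP2 cluster near IRF2 0.03 and 0.10, and the PRM1 cluster near SOCS1 0.04 and 0.12.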

How the data were processed

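Per the labels' protocols, nuclei of AMO1 cells carrying PCDH-PHF19 or empty PCDH were treated with Tn5, and each group holds 1 library. Per the file headers, the authors called peaks for each library with MACS2 2.1.2 without a control, at a q of 0.01, keeping duplicates and several summits per peak. Per the submitters' processing notes, bcl2fastq 2.17, Trimmomatic 0.38, DiffBind and the build hg38 were also used; the aligner is not given in the sources used here, nor is any Tn5 shift. The pileup deposited by the authors is the signal, an unscaled coverage by fragments at the summit, per the file headers. The deposited -log10 q-values were used only for a stricter peak filter, the deposited -log10 p-values were not used, and the authors' fold enrichment, a ratio to local background, was used only to describe peaks. Because duplicates were kept, fragments at a summit need not be independent. The ratio intervals treat them as independent counts and can be too narrow even for counting error.

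From these files each peak was given its tallest summit, peaks overlapping by at least 1 bp were merged, and regions were filtered, chained and summed as stated with the results, with gene positions for 19122 protein-coding genes from RefSeq (GRCh38.p14, the build of the files). Heights are pileups per M fragments, with the fragment number of each library from its file header. Ratio and share intervals are exact 95% ones, and intervals of medians come from ranks. The IFN empty vector list is the deepest (65.9 M fragments), and its header names another project folder than the other 3. Its comparison with IFN PHF19 overexpression (16.4 M) therefore joins unequal depths.

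The members, gene lists and tests were chosen with earlier results of these data known. Named with values are the 10 tallest clusters, the 5 with the most regions, in each direction the 8 clusters for PHF19 and the 6 for the IFN prefix whose weaker value of the pair of comparisons was most extreme, and up to 4 clusters near genes of the plasma cell, myeloma, B cell, interferon, adhesion and secretory lists; MEF2C, NFE2L3, NDRG4, TAF1B, STK24, FCRL5, KCNN3, MVB12B and those of the closing section were named after their values were seen. Merging, chaining and intervals were tested on simulated data. PHF19 overexpression against empty vector was also fitted over the 4 libraries with limma 3.58.1 in R 4.3.3 on centred log2 heights, with the prefix as a block and a variance trend. Python 3.11.15, numpy 2.4.6, pandas 2.3.3, scipy 1.17.1 and matplotlib 3.10.9 were used. Alternatives varied the gap, the distance to genes, the chain size, the q filter, the peak requirement, the merging, the centring and the treatment of missing peaks. Sequences are RefSeq's, matched by position. Some items are not reported here.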

Additional observations from a re-analysis of the deposited data

How the results depend on the processing

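Under every definition and scaling tried, the median log2 ratio over the clusters stayed below 0 in both PHF19 comparisons, and more clusters were lower than higher. Among named clusters a called value changed sign only when the local median was removed, which turned the SH3BP2 cluster to -0.13 in PHF19 overexpression and -0.21 in the IFN pair, and the GNLY cluster to -0.048 in the IFN pair. No paired analysis was possible because the labels give no replicate numbers; a limma fit with the IFN prefix as a block, added after the data were seen, called 66 clusters lower and 22 higher.

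Counts and shares moved with the definition of a cluster. A gap of at most 5000 bp left 10 clusters with 0.395% of the distal summed height in PHF19 overexpression, 0.374% in empty vector, 0.396% in IFN PHF19 overexpression and 0.368% in IFN empty vector; 13.5% of their regions had no peak in PHF19 overexpression and 15.4% in IFN PHF19 overexpression. A gap of at most 20000 bp gave 577 clusters with shares of 15.8, 16.1, 15.5 and 15.7% in the same order of libraries. A distance above 1000 bp from gene ends gave 7.07, 7.22, 6.94 and 6.98%, and one above 5000 bp gave 6.24% in empty vector and 5.99% in IFN empty vector. Requiring 4 regions gave 568 clusters with 11.5, 12.1, 11.4 and 11.8%, and requiring 8 gave 14 with 1.06, 0.961, 1.01 and 0.894%. A peak in all 4 libraries left 76 clusters with 3.39, 3.49, 3.33 and 3.33%. A q of at most 1e-05 gave 4.87, 5.08, 4.72 and 4.89%. Merging peaks within 100 bp gave 6.33% in empty vector and 6.12% in IFN empty vector. With lists of equal length, 13.2% of cluster regions had no peak in PHF19 overexpression and 11.8% in IFN PHF19 overexpression.

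The median in PHF19 overexpression was -0.26 with the gap of 5000 bp, -0.28 with 8 regions, -0.33 with missing peaks as 0, -0.26 with them at the lowest pileup, -0.29 without centring, -0.39 for height times length and -0.10 for the median of region ratios. In IFN PHF19 overexpression it was -0.29 with 8 regions, -0.35 with missing peaks as 0, -0.30 with them at the lowest pileup, -0.077 without centring and -0.66 for height times length. The IFN-prefixed medians moved around 0. In the empty vector pair they were -0.053 with the gap of 5000 bp, -0.047 with 8 regions, -0.0048 with a peak in all 4, -0.087 without centring, -0.075 centred on distal regions outside clusters, 0.057 with the height trend removed and 0.25 for height times length. In the PHF19 pair they were 0.055 with the gap of 5000 bp, 0.12 without centring and -0.039 centred outside clusters.

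Clusters lower in both PHF19 comparisons numbered 2 with the gap of 5000 bp, 133 with 20000 bp, 138 with 4 regions, 5 with 8, 22 with a peak in all 4, 104 with missing peaks as 0 and 21 past 0.5. Clusters higher in both numbered 1, 34, 35, 1, 6, 7 and 3 under these settings, 6 with the q filter, 6 with the local median removed and 22 past 0.2. Without centring 41 were lower (18.6%, against 16.1% of chains of 2 to 4) and 11 higher (5%, against 11%). With missing peaks as 0 the lower ones were 47.3%, against 36.4% of chains of 2 to 4; only the PHF19 libraries could lack a peak there. With the height trend removed the lower ones were 22.7%, against 18.6%. Chain size was counted from empty vector peaks under each of these scalings, so the shares are descriptions. For the varied gaps, chain sizes, peak requirements and thresholds no share of chains was computed, so those counts are descriptions. Clusters higher in both IFN prefix comparisons numbered 0 with the gap of 5000 bp, 8 regions, a peak in all 4, centring outside clusters, the height trend removed or the threshold of 0.5. They numbered 2 above 1000 bp, with missing peaks at the lowest pileup or with the local median removed, 3 with missing peaks as 0, 6 with the gap of 20000 bp or 4 regions, and 7 past 0.2. Requiring 3 regions with a peak in all libraries, added after the data were seen, kept these summaries close to the values reported. Fewer clusters entered under the stricter definitions; for the other settings the cause was not tested.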

Other observations

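Some of the 60 clusters called lower lay near genes of chromatin regulators. They were picked after their values were seen, from no fixed list and with no background share, so they show no excess of such genes. The clusters named after the chromatin remodeller gene CHD2 (-0.26 and -0.10) and after SFMBT2 were not called lower. The cluster nearest to EED, which encodes the subunit of Polycomb repressive complex 2 that binds methylated histone H3, lay 25.8 kb from the gene at chr11:86177237-86218959. Its summed height was 9.6 fragments per M in PHF19 overexpression, 16.2 in empty vector, 10.8 in IFN PHF19 overexpression and 15.2 in IFN empty vector, with log2 ratios of -0.55 (-0.81 to -0.29) and -0.52 (-0.77 to -0.29). Those nearest to the histone demethylase genes KDM2A and KDM7A had -0.51 and -0.51, and -0.49 and -0.44. The cluster over the acetyltransferase gene KAT6B had -0.44 and -0.38, and that nearest to CXXC1, which encodes a CpG-binding subunit of a histone methyltransferase complex, had -0.50 and -0.40. Expression of the genes near clusters was not measured in these files.

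The cluster over CDH1, the gene of E-cadherin, had ratios below 0 in all 5 of its regions, 3 of which passed 0.5 in both comparisons. Its summed height was 28 fragments per M in PHF19 overexpression, 48.5 in empty vector, 29.4 in IFN PHF19 overexpression and 43.3 in IFN empty vector, with log2 ratios of -0.68 (-0.83 to -0.53) and -0.70 (-0.84 to -0.56) in a neighbourhood at -0.08 and -0.01. The cluster nearest to BTG2, an antiproliferative gene, ranked next to it in height and had -0.46 (-0.60 to -0.32) and -0.48 (-0.62 to -0.35). The GLRX cluster, 14 kb from ELL2, went the other way, with 0.30 (0.12 to 0.49) and 0.42 (0.26 to 0.57) in a neighbourhood at 0.24 and 0.30.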
